A study of Mus musculus with 69 samples.

Results

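Fatty acid binding proteins are small carriers that hold long-chain fatty acids and related lipids in the cytoplasm, each gene with its own set of tissues, and CD36 is a scavenger receptor at the cell surface that takes up long-chain fatty acids and oxidised lipoproteins. The proximal tubule of the kidney draws most of its energy from fatty acid oxidation, so that delivery, uptake and intracellular transport of fatty acids are tied to its work. The core clock runs in kidney cells and drives daily rhythms of many metabolic genes.

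The 5 genes described here were Fabp7, Fabp1, Fabp3, Fabp5 and Cd36, of 24523 genes with counts in every library. Fabp7 was selected on its measured values, for a strong difference in its daily rhythm between young and nephritic mice in these same libraries, and the other 4 were added as its family and functional partner. The differences of Fabp7 between time points within young and nephritic mice and in rhythm are therefore given as a description without a test, whereas its level, its difference between ZT0 and ZT12 in remission mice and all values of the other 4 genes were tested.

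The libraries were bulk RNA-seq of whole kidneys from NZB/W F1 mice, a cross that develops spontaneous lupus nephritis. Young mice were 12 weeks old (n = 30) and nephritic mice were 30 to 45 weeks old (n = 27), killed 2 to 3 weeks after the onset of proteinuria of 300 mg/dl, and both groups were sampled at ZT0, 4, 8, 12, 16 and 20 (ZT, Zeitgeber time in hours). Young and nephritic mice differed in age as well as in disease, and the contribution of age to any difference between them cannot be told apart from that of nephritis. Remission mice, 36 to 50 weeks old (n = 8, 4 each at ZT0 and ZT12), had received cyclophosphamide (50 mg/kg), CTLA4Ig and anti-CD40L at the onset of proteinuria, held proteinuria at or below 30 mg/dl and were sampled 8 weeks later. Remission kidneys had a separate sequencing run, which cannot be told apart from treatment except through 4 repeat libraries, and the young and nephritic kidneys were sequenced as Set 1 (ZT0 and ZT12) and Set 2 (all times). The total count per original library was between 25257530 and 48075977 for young and nephritic mice and between 13311278 and 21849912 for remission mice.

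Several libraries stood apart and touch the results below. In 5 young and 2 nephritic libraries of the 65 originals Alb, the albumin gene of hepatocytes, exceeded 1000 CPM (the usual unit of counts scaled to library size, here with TMM factors), whereas it did not exceed 684 CPM in any other original library. Some clock genes went against the time labels. In 1 of the 4 nephritic ZT8 mice (RX10RU) Per3 was 10.8 CPM against 56.7 to 62.4 CPM in the others of its group, and in 1 of the 4 remission ZT12 mice (s9) Arntl was 27.01 CPM against 3.20 to 4.89 CPM in the others. In nephritic mice Per3 was lower at ZT16 (9.02 to 11.02 CPM) than at ZT20 (20.7 to 23.2 CPM), whereas in young mice it was higher at ZT16 (35.2 ± 2.12 CPM, SD, n = 4) than at ZT20 (16.3 ± 0.980 CPM, SD, n = 4). The cause of these departures was not tested and the labels were used as given. Most main results that rest on these libraries are given with and without them. The 24 h cosines below were not fitted without ZT16 and ZT20.

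**Figure D1:**
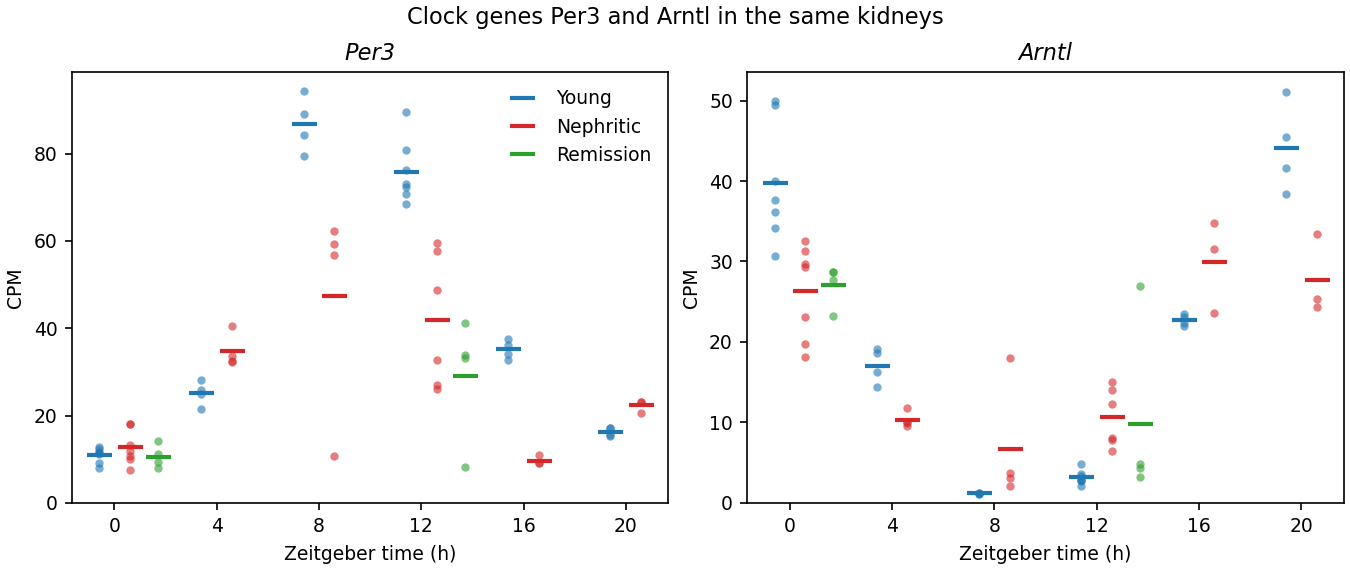
Per3 (left) and Arntl (right), both core clock genes, in CPM against Zeitgeber time in hours. Each point is 1 kidney and the horizontal bar is the mean of the group. Nephritic Per3 lies below young Per3 at ZT16 and above it at ZT20, and 1 nephritic ZT8 kidney and 1 remission ZT12 kidney lie far from the rest of their groups in both panels.

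The promoter of Fabp7 is shown because Fabp7 was chosen for its daily rhythm, and that of Cd36 because it also changed over the day in young mice, with its lowest values at ZT4 and ZT8. Both sequences are from RefSeq on GRCm38.p6 and read 5′ to 3′ on the strand of the gene, with the bases in annotated exons left out, so that Fabp7 has 208 bases and Cd36 250. Capitals mark TGACCT, the reverse complement of AGGTCA, the core sequence bound by many nuclear receptors, including the clock components of the ROR and REV-ERB families. It began 171 bases before the RefSeq start site in Fabp7 and 228 bases before that in Cd36. The RefSeq start site of Fabp7 lies after the GENCODE gene start given below.
Fabp7, chr10:57784673-57784880, plus strand: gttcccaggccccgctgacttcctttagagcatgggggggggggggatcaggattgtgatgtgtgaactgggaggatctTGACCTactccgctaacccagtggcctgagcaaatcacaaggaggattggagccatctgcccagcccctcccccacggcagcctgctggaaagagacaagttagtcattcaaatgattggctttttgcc
Cd36, chr5:17835897-17836146, minus strand: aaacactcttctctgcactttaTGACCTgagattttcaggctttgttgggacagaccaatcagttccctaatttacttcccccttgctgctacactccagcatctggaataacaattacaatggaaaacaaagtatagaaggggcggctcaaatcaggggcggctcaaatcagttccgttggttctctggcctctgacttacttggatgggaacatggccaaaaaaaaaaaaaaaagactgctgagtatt
AGGTCA occurred in 14% of 32851 mouse promoters over the same 250 bases before the start site, searched on both strands, so that its presence in both promoters is a description only. The same search of 250 bases found 2 such sites for Fabp1, 67 and 9 bases before the RefSeq start site, and 0 for Fabp3. The Fabp1 site at 9 bases lies after the GENCODE gene start given below. The E-box CACGTG, present in 6.02% of promoters, and the D-box TTATGTAA, present in 0.819%, were found in none of these promoters. The absence of these letters from a short window says nothing of the factors that bind them.

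Fabp7 encodes the brain-type fatty acid binding protein, known from radial glia, which also binds docosahexaenoic acid. It lies on chromosome 10 (57784881 to 57788450, plus strand, GRCm38) with 4 exons. In young kidneys Fabp7 was high in the morning, fell to a trough at the onset of the dark period and was higher again by the end of the night. At ZT0 the 7 young mice had a lowest value of 11.1, a median of 13.6 and a highest value of 17.1 CPM. At ZT4 the 4 values were 18.5, 17.1, 13.7 and 19.7 CPM, the highest of the day. By ZT8 they had dropped to 6.36, 7.84, 7.94 and 8.87 CPM. The young trough was at ZT12, where the 7 mice spanned 2.13 to 3.24 CPM with a median of 2.70 CPM. The values then rose to 4.38, 4.73, 5.40 and 3.52 CPM at ZT16 and to 9.59, 6.96, 7.55 and 7.16 CPM at ZT20. No value at ZT0 or ZT4 overlapped with any at ZT8 to ZT20 in young mice. The set-adjusted means at ZT4 and ZT12, the highest and the lowest, differed by 2.52 on the log2 scale, or 5.73-fold, against a residual SD of 0.21 between mice of a time point.

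In nephritic kidneys the morning values of Fabp7 were lower and the trough was shallower. At ZT0 the 7 nephritic mice had a lowest value of 5.57, a median of 9.09 and a highest value of 12.7 CPM, of which 5 lay below every young mouse at ZT0. At ZT4 the values were 8.77, 11.7, 13.3 and 11.9 CPM, all below the 4 young mice. At ZT8 they were 9.26, 8.90, 15.9 and 10.8 CPM, all above the young mice of that time. At ZT12 the 6 mice spanned 2.46 to 5.71 CPM with a median of 4.22 CPM, and 4 of them lay above every young mouse of that time. At ZT16 the values of 9.38, 8.62 and 8.96 CPM lay above all 4 young mice, and at ZT20 those of 4.63, 5.85 and 4.99 CPM lay below all 4. The set-adjusted means at ZT4 and ZT12, again the highest and the lowest, differed by 1.60 on the log2 scale, or 3.03-fold, with a residual SD of 0.37.

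**Figure D2:**
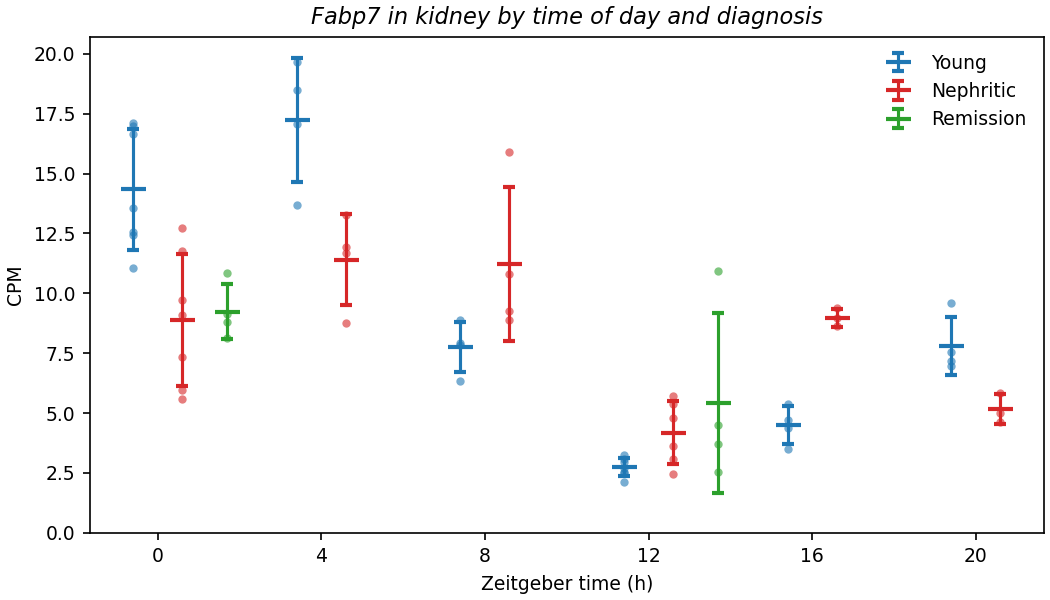
Fabp7 in CPM (TMM-normalised) against Zeitgeber time in hours. Each point is 1 kidney, the horizontal bar is the mean of the group and the whiskers are 1 SD. Young values fall from 13.7 to 19.7 CPM at ZT4 to 2.13 to 3.24 CPM at ZT12, whereas nephritic values run from 8.77 to 13.3 CPM at ZT4 to 2.46 to 5.71 CPM at ZT12, and nephritic values lie above young values at ZT8 and ZT16 and below them at ZT0 (in the mean), ZT4 and ZT20.

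A 24 h cosine fitted to log2 CPM gave Fabp7 an amplitude of 1.26 ± 0.06 (SE, n = 30) with a peak at 1.74 ± 0.22 h in young mice, and an amplitude of 0.56 ± 0.17 (SE, n = 27) with a peak at 3.51 ± 1.07 h in nephritic mice. This contrast is the one for which Fabp7 was picked and has no test. The order of Fabp7 at ZT16 and ZT20 in nephritic mice was the reverse of that in young mice, and so was the order of Per3 at these times, as given above. Without ZT16 and ZT20 the range of the time point means was 2.49 in young and 1.61 in nephritic mice on the log2 scale, and with mouse RX10RU also left out, which held the highest nephritic Fabp7 value at ZT8, it was 2.49 and 1.64. In both groups the highest and lowest means lay at ZT4 and ZT12, and neither time was left out here. The ranges were thus bound to stay close, which says nothing of the labels at ZT8, ZT16 and ZT20. The differences at ZT16 and ZT20 rest on the 6 nephritic mice with those labels. The nephritic cosine amplitude and peak rest on them too, since the cosine was not fitted without these times. Within Set 2 alone the amplitudes were 1.26 and 0.56.

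The mean level of Fabp7 over the day was not called different between nephritic and young mice. With each time point weighted equally, the log2 change was 0.04 ± 0.09 (SE, edgeR quasi-likelihood test, adjusted p = 0.698). In the same test 26.4% of 17521 genes were called higher and 33.6% lower. Fabp7 had 65 to 600 counts per young library, 89 to 568 per nephritic library and 47 to 179 per remission library.

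Over the 30 young libraries, the genes most like Fabp7 in set-adjusted log2 CPM included Ethe1 (Pearson r = 0.95), Gm3716 (0.93), Slc29a3 (0.93) and Htra1 (0.92), as a description with no test, since these libraries share their time points and a gene with the same daily profile will rank high. Over the 27 nephritic libraries the values of r for the same genes were 0.74, 0.59, 0.66 and 0.74. Markers of Schwann cells and glia, where Fabp7 is well known, were low, with a median of 0.365 CPM for Sox10 over the 65 libraries, and their summed level spanned 23.7 to 33.1 CPM in young and 22.2 to 48.3 CPM in nephritic mice.

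In remission mice Fabp7 was measured at ZT0 and ZT12 only. At ZT0 the 4 values were 8.82, 8.12, 10.9 and 9.15 CPM, within the nephritic range and below all 7 young mice. At ZT12 they were 4.50, 3.71, 2.55 and 10.9 CPM, and the last of these was mouse s9, whose Arntl was at the level of the ZT0 mice. The log2 ratio of ZT0 to ZT12 in remission mice was 0.78 ± 0.39 (SE, adjusted p = 0.514, edgeR). Without mouse s9 it was 1.37 (adjusted p = 0.0268, edgeR). In the full comparison 0% of 14451 genes were called, and without mouse s9 202 genes were. The ZT0 and ZT12 medians were 8.99 and 4.11 CPM in remission mice and 13.6 and 2.70 CPM in young mice, a contrast that is given as a description only. The mean level over both times was not called different from nephritic mice (log2 change 0.25 ± 0.21, adjusted p = 0.364) or from young mice (0.21 ± 0.20, adjusted p = 0.424, edgeR), and without mouse s9 these changes were -0.05 and -0.09.

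Fabp1 encodes the liver-type fatty acid binding protein, the major cytoplasmic lipid carrier of hepatocytes and enterocytes. It lies on chromosome 6 (71199827 to 71205023, plus strand, GRCm38). Most kidneys held little of it, but 3 young kidneys held far more than all others, at 304 CPM (1 of 4 at ZT8) and at 208 and 201 CPM (2 of 4 at ZT16). In each of the other 27 young kidneys Fabp1 was at most 49.9 CPM, and at ZT0 the 7 young mice spanned 3.11 to 8.10 CPM with a median of 4.18 CPM. In nephritic kidneys it spanned 1.88 to 37.0 CPM with a median of 10.9 CPM, and in remission kidneys 5.06 to 16.5 CPM.

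The same 3 young kidneys had Alb at 10587, 9373 and 8803 CPM, and the other 4 original libraries over 1000 CPM of Alb were a young ZT4 kidney (Alb 1968 CPM, Fabp1 49.9 CPM), a young ZT16 kidney (1386 and 37.1 CPM) and 2 nephritic ZT0 kidneys (3044 and 37.0 CPM, 1220 and 16.04 CPM). The 10 genes of a hepatocyte list were all detected, 9 of them in every library, and their summed level reached 14373 CPM in young and 3756 CPM in nephritic mice against medians of 247 and 299 CPM and a highest value of 105 CPM in remission mice. This list was chosen after the values of Fabp1 were seen. The genes most like Fabp1 over the 30 young libraries included Hrg, Slc10a1, Serpina1a and Cpn2, with r between 0.97 and 0.98, all known as genes of the liver, and over the nephritic libraries r was between 0.53 and 0.69. These correlations are descriptions over libraries that share the 3 high kidneys.

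**Figure D3:**
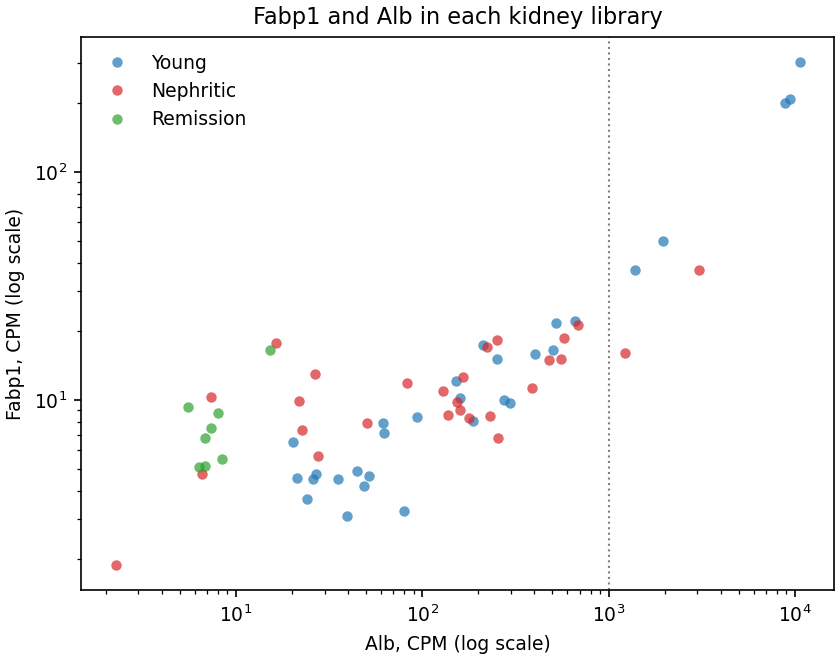
Fabp1 against Alb, both in CPM on log scales, with 1 point per kidney library and the diagnosis by colour. The dotted line marks 1000 CPM of Alb, and the 3 young libraries with 201 to 304 CPM of Fabp1 are also the 3 with the most Alb.

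The tests of Fabp1 moved with these libraries. Its level was lower in nephritic than in young mice by 0.96 on the log2 scale (SE 0.30, adjusted p = 0.00566, edgeR), but without the 7 libraries over 1000 CPM of Alb the change was 0.30 in the opposite direction and was not called (SE 0.21, adjusted p = 0.231). Leaving out the young ZT8 kidney with 304 CPM alone brought the change to -0.49 (adjusted p = 0.079). Fabp1 passed the test of time points in young mice (adjusted p = 0.00291, where 39.8% of 16521 genes were called), in nephritic mice (adjusted p = 0.044, where 21.6% of 16872 genes were called) and of the difference in rhythm (adjusted p = 0.024, where 6.27% of 17521 genes were called), and without the 7 libraries these values were 0.271, 0.078 and 0.165. In those remaining libraries the Fabp1 medians were 7.89 CPM in young (n = 25) and 10.3 CPM in nephritic mice (n = 25).

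Fabp2, the intestinal form, was also lower in nephritic mice (log2 change -2.38 ± 0.51, SE, adjusted p = 7.54e-05), at means of only 0.819 and 0.127 CPM. In remission mice Fabp1 was not called different in level from nephritic mice (-0.76 ± 0.34, adjusted p = 0.0809) or from young mice (-0.22 ± 0.35, adjusted p = 0.644), nor between ZT0 and ZT12 (-0.20 ± 0.36, adjusted p = 0.837, edgeR).

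Fabp3, the heart-type form that serves tissues with high rates of fatty acid oxidation, lies on chromosome 4 (130308595 to 130315463, plus strand, GRCm38). Per kilobase of exon it was the highest of the 5 genes in nephritic mice, with a mean of 82.4 CPM per kb against 23.7 for Cd36, 22.4 for Fabp1, 12.7 for Fabp5 and 6.53 for Fabp7. Single nephritic mice spanned 53.2 to 122 CPM per kb for Fabp3, and the ranges of Cd36 (9.99 to 34.3), Fabp1 (3.41 to 66.9), Fabp5 (5.27 to 23.0) and Fabp7 (1.97 to 12.7) overlapped with their neighbours in this order, and the range of Fabp1 also overlapped with that of Fabp3, so that this order of means does not hold mouse by mouse.

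Fabp3 was lower in nephritic mice and at the young level in remission mice. Over all times the lowest, median and highest values were 56.1, 88.0 and 124 CPM in young mice, 43.8, 65.0 and 100 CPM in nephritic mice and 71.8, 91.9 and 108 CPM in remission mice. The ranges overlapped, but at ZT4, ZT12 and ZT16 every nephritic mouse lay below every young mouse of that time. The 4 nephritic values at ZT4 were 65.0, 67.5, 64.3 and 62.4 CPM against 92.9, 97.1, 91.3 and 108 CPM in young mice. The change in level was -0.39 ± 0.07 on the log2 scale, or 0.765-fold (SE, adjusted p = 2.68e-06, edgeR). It stayed between -0.43 and -0.33 and was called in each of the alternatives run on young and nephritic mice other than Set 1 alone, where it was -0.25 ± 0.16 (adjusted p = 0.187). Remission mice exceeded nephritic mice by 0.55 ± 0.12 (adjusted p = 6.6e-04, edgeR, where 17.1% of 16841 genes were called higher and 20.8% lower). They were not called different from young mice (0.15 ± 0.12, adjusted p = 0.346, edgeR, where 41.6% of genes were called). Without mouse s9 these changes were 0.58 and 0.17. The repeat libraries, sequenced with the remission run, held more Fabp3 than their originals. The values were 86.1 against 75.5 CPM (young ZT0), 99.5 against 84.9 CPM (young ZT12), 45.8 against 43.8 CPM (nephritic ZT0) and 70.3 against 54.4 CPM (nephritic ZT12). The last pair is mouse RX11RU, whose repeat was nearest to another mouse, as given at the end. With the run as a covariate, with or without this pair, both remission comparisons kept their direction and side of the threshold.

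Fabp3 also varied with time in young mice (adjusted p = 0.00246), with its highest set-adjusted mean at ZT8 and its lowest at ZT16, a 1.41-fold range. At ZT8 the 4 young values were 101, 120, 97.4 and 124 CPM and at ZT16 they were 69.9, 84.2, 79.7 and 78.6 CPM, which did not overlap. In nephritic mice the test of time points did not pass (adjusted p = 0.212), and neither did that of the difference in rhythm (adjusted p = 0.217), so a change of its rhythm was not shown. The 4 nephritic values at ZT8 were 98.9, 91.7, 53.3 and 93.5 CPM, and the low one was mouse RX10RU, without which the adjusted p was 0.0555 for time and 0.0999 for the difference in rhythm. Without the libraries over 1000 CPM of Alb the nephritic time test reached an adjusted p of 0.0446.

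The genes most like Fabp3 over the young libraries were Bcat2 (r = 0.90), Slc51a (0.89), Prr15l (0.88), Ttc36 (0.88) and Dap3 (0.88), and their r over the nephritic libraries was between 0.75 and 0.83, as a description. All 10 proximal tubule markers were lower in nephritic mice, with a summed level of 1961 to 13000 CPM against 9924 to 16496 CPM in young and 7815 to 11494 CPM in remission mice. All 7 macrophage markers were higher in nephritic mice, with a summed level of 307 to 2098 CPM against 118 to 252 CPM in young mice. In whole kidneys, fewer cells of a type and less RNA per cell cannot be told apart, and the part of these markers in the lower Fabp3 was not tested.

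Fabp5, the epidermal form, which is also expressed in macrophages and endothelium, lies on chromosome 3 (10012548 to 10016607, plus strand, GRCm38). It was lower in nephritic mice, in which all 7 macrophage markers were higher and 4 of 7 endothelial markers were lower, and the part of these cells in its level was not tested. The lowest, median and highest values were 10.2, 15.5 and 30.6 CPM in young, 5.20, 12.1 and 22.7 CPM in nephritic and 9.91, 12.8 and 17.9 CPM in remission mice, with broad overlap. The change from young to nephritic mice was -0.41 ± 0.11 on the log2 scale (SE, adjusted p = 0.00112, edgeR). Without the libraries over 1000 CPM of Alb it was -0.27 ± 0.12 and no longer called (adjusted p = 0.0557). The sets differed, with -0.51 ± 0.09 in Set 2 alone and 0.17 ± 0.29 in Set 1 alone (adjusted p = 7.91e-06 and 0.635). Remission mice were not called different from nephritic mice (0.05 ± 0.21, adjusted p = 0.881) or from young mice (-0.39 ± 0.21, adjusted p = 0.129).

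No time pattern was called for Fabp5 in young mice (adjusted p = 0.16), in nephritic mice (adjusted p = 0.375) or as a difference in rhythm (adjusted p = 0.793). At young ZT12 the lowest, median and highest values were 10.2, 17.1 and 30.6 CPM, and this spread followed the sequencing set. The 3 Set 1 mice spanned 10.2 to 15.1 CPM and the 4 Set 2 mice 17.1 to 30.6 CPM, without overlap. The summed adipocyte markers, listed below, split in the same way, with 72.9 to 82.5 CPM in Set 1 and 230 to 479 CPM in Set 2. The part of adipocyte RNA in Fabp5 was not tested. The genes most like it over the young libraries, Pla2g16, Ifi27, Mrps6, Ppm1m and Gng10, reached an r of only 0.70 to 0.74, the weakest likeness of the 5 genes, and 0.12 to 0.64 over the nephritic libraries.

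**Figure D4:**
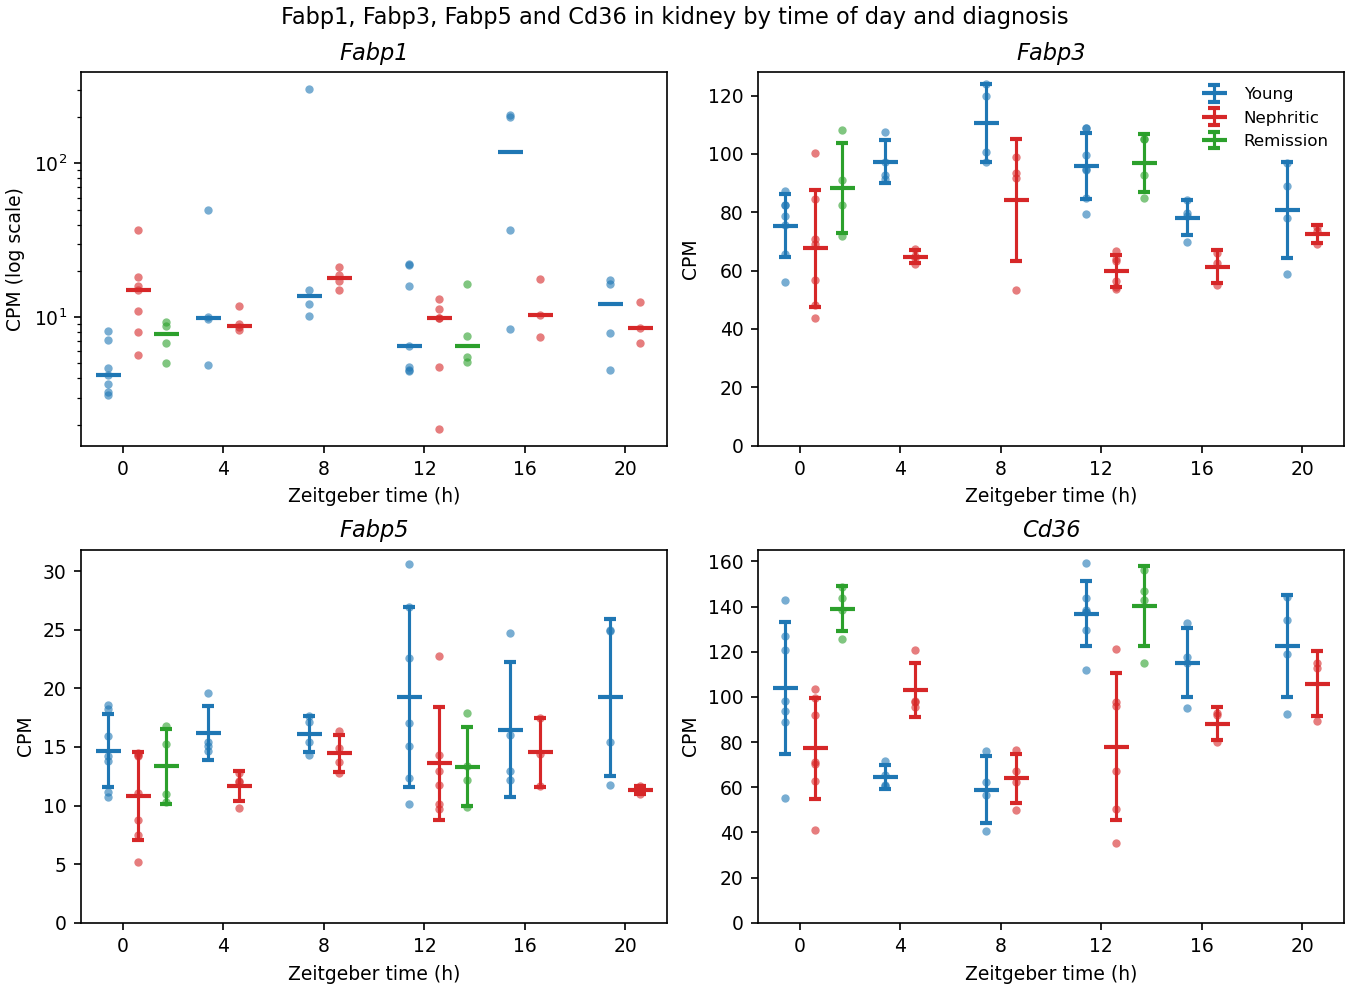
Fabp1 (log scale), Fabp3, Fabp5 and Cd36 in CPM against Zeitgeber time in hours. Each point is 1 kidney, horizontal bars are group medians for Fabp1 and group means for the others, and whiskers are 1 SD. Fabp3 is lower in every nephritic than every young mouse at ZT4, ZT12 and ZT16, and nephritic Cd36 lies above young Cd36 at ZT4 and below it at ZT16.

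Cd36 is encoded on chromosome 5 (17781690 to 17888801, minus strand, GRCm38), with up to 16 exons in a transcript. In young mice Cd36 was lowest at ZT4 and ZT8 and higher from ZT12 to ZT20. At ZT0 the 7 young mice had a lowest value of 55.1, a median of 98.1 and a highest value of 143 CPM, a range that reached both. The 4 young values were 60.9, 65.6, 60.4 and 71.8 CPM at ZT4 and 62.2, 56.8, 76.3 and 40.5 CPM at ZT8. At ZT12 the 7 young mice spanned 112 to 159 CPM with a median of 138 CPM, above every mouse at ZT4 and ZT8. The young values were 133, 95.2, 118 and 115 CPM at ZT16 and 92.4, 134, 144 and 119 CPM at ZT20. The set-adjusted means spanned 2.11-fold between ZT8 and ZT12, and the test of time points passed (adjusted p = 1.55e-05, edgeR). The cosine peak was at 17 ± 0.51 h with an amplitude of 0.57 ± 0.09 on the log2 scale (SE, n = 30), against 1.74 h for Fabp7.

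In nephritic mice this daily pattern differed. At ZT4 the nephritic values of 95.4, 98.1, 97.8 and 121 CPM all exceeded the young ones, and at ZT16 those of 93.0, 79.9 and 91.8 CPM all lay below them. At ZT8, with 62.5, 67.2, 76.3 and 50.1 CPM, the groups overlapped. At ZT12 the 6 nephritic mice spanned 35.3 to 121 CPM with a median of 81.7 CPM, and 5 of them lay below every young mouse. The difference in rhythm passed the test (adjusted p = 0.0247), as it did without ZT16 and ZT20 (0.0265), without the libraries over 1000 CPM of Alb (0.0401) and in Set 2 alone (0.0187). With a cosine in place of separate time points it did not (adjusted p = 0.237). The test of time points within nephritic mice gave an adjusted p of 0.0995, and 0.0409 in Set 2 alone.

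The mean level of Cd36 over the day was not called different between nephritic and young mice (-0.19 ± 0.10 on the log2 scale, SE, adjusted p = 0.0927), and the 2 sequencing sets differed. At ZT0 in Set 1 the 3 nephritic mice spanned 40.9 to 71.4 CPM against 121 to 143 CPM in the 3 young mice, whereas in Set 2 the 4 nephritic mice spanned 62.9 to 104 CPM against 55.1 to 98.1 CPM in the 4 young mice. Within Set 2 the change was -0.0001 ± 0.08 (adjusted p = 1) and within Set 1, at ZT0 and ZT12, it was -1.41 ± 0.16 (adjusted p = 5.67e-05). Whether set or mice made this difference was not tested.

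Cd36 was higher in remission than in nephritic mice. The remission values at ZT0 were 149, 138, 126 and 144 CPM, above every nephritic mouse of that time. At ZT12 they were 156, 115, 143 and 147 CPM and overlapped with the nephritic mice, of which the highest was at 121 CPM. The change in level was 0.82 ± 0.18 on the log2 scale, or 1.76-fold (SE, adjusted p = 6.79e-04, edgeR), and 1.08 and 1.33 with the sequencing run as a covariate, taken from the repeat libraries with and without the pair of mouse RX11RU. Without mouse s9 it was 0.80 (adjusted p = 0.00162, edgeR). Remission mice were not called different from young mice in level (0.17 ± 0.19, adjusted p = 0.496). Between ZT0 and ZT12 within remission mice the log2 change of Cd36 was -0.0073 ± 0.10 (SE, adjusted p = 0.982). None of the 14451 genes was called in that comparison by edgeR, while 1449 had an unadjusted p under 0.05, and DESeq2 called 24 and limma 0. The ratio of ZT0 to ZT12 in remission mice differed from that in nephritic mice for 0% of genes and from that in young mice for 0.0178%, and for none of the 4 tested genes in either case. Endothelial markers, where Cd36 is also known, were higher in remission than in nephritic mice for 6 of 7 genes, with a summed level of 656 to 951 CPM against 226 to 640 CPM, and their part in the higher Cd36 was not tested.

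The genes most like Cd36 over the young libraries were Pparg (r = 0.92), Ank (0.90), Eif4e3 (0.90), Gpd2 (0.89) and Plin4 (0.89), and over the nephritic libraries the same values were 0.56, 0.48, 0.46, 0.73 and 0.38. Pparg encodes a nuclear receptor that drives fat cell differentiation and for which Cd36 is a known target. The 7 adipocyte markers, Adipoq, Lep, Retn, Cfd, Adig, Cidec and Plin1, all varied with time in young and in nephritic mice. Their summed level had a median of 65.8 CPM at ZT8 and 230 CPM at ZT12 in young mice, and of 41.6 CPM at ZT4, 71.9 CPM at ZT8 and 426 CPM at ZT16 in nephritic mice. Fabp4, the adipocyte form, followed the same course, with a cosine peak at 16.9 ± 0.72 h in young and 18.6 ± 0.50 h in nephritic mice, and values between 48.7 and 490 CPM in young mice. At young ZT12 Fabp4 also split by set, with 105 to 127 CPM in Set 1 and 221 to 490 CPM in Set 2. At nephritic ZT4 Cd36 was high where the adipocyte markers were lowest (17.1 to 46.1 CPM). The part of adipocyte RNA in the daily pattern of Cd36 was not tested.

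**Figure D5:**
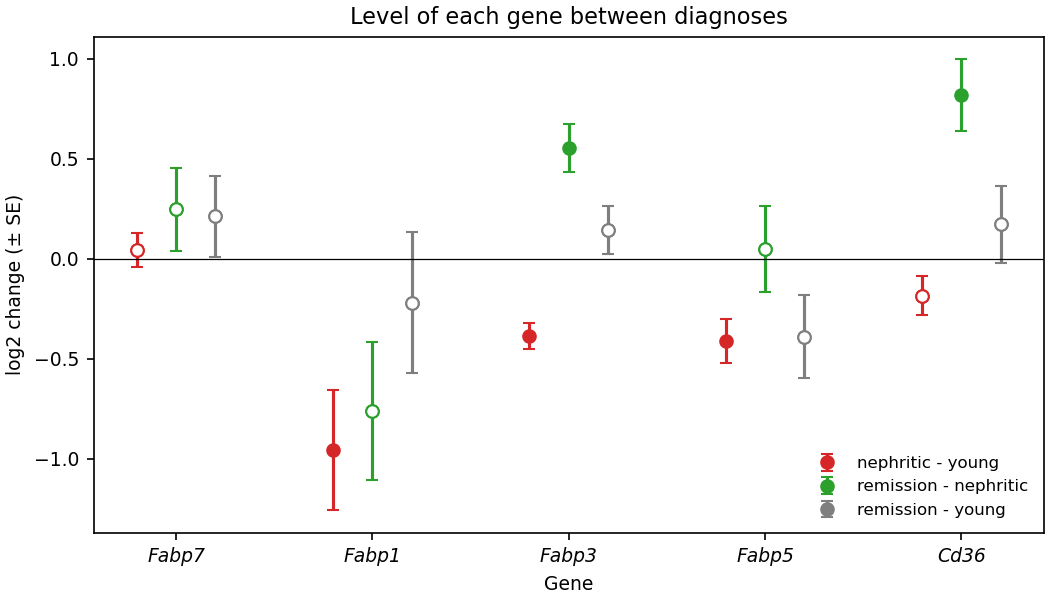
Change in level on the log2 scale, with its SE, for each of the 5 genes in 3 comparisons. Filled points have an adjusted p of at most 0.05 and open points do not. Fabp1, Fabp3 and Fabp5 are lower in nephritic than in young mice, of which the Fabp1 change turns to 0.30 without the 7 libraries over 1000 CPM of Alb, and Fabp3 and Cd36 are higher in remission than in nephritic mice.

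Related genes are counted beside all genes, of which 26.4% were called higher and 33.6% lower in nephritic than in young mice. In this comparison 2 of the 4 tested of 6 other Fabp genes passed, both lower, namely Fabp2 (above) and Fabp9 (-1.77 ± 0.72, at means of 0.144 and 0.0213 CPM). Fabp4 was not called (-0.24 ± 0.16, adjusted p = 0.181). Of 10 genes of fatty acid delivery and uptake, 6 were lower and 0 higher, with a median log2 change of -0.36 against -0.03 over all genes. They included Lpl, the lipoprotein lipase that frees fatty acids from circulating triglyceride (-0.74 ± 0.13, from a mean of 428 to 237 CPM), and Slc27a5, a bile acid and very long-chain acyl-CoA ligase best known in liver (-2.06 ± 0.41, at means of 11.3 and 1.74 CPM). The hepatocyte list had a median log2 change of -1.88 in the same comparison. Slc27a5 was not tested without the libraries over 1000 CPM of Alb, and the part of hepatocyte RNA in its change was not tested. Of the 8 PPAR factors, 7 were lower and 1 higher, with the largest changes in Ppara, the main activator of fatty acid oxidation genes (-0.70 ± 0.13), and Ppargc1b (-0.46 ± 0.10), while Pparg was the higher one (0.41 ± 0.13).

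Against the same 26.4% higher and 33.6% lower over all genes, of 6 genes of the carnitine shuttle, which carries fatty acids into mitochondria, 4 were lower and 1 higher, the largest being Cpt1c (0.63 ± 0.10) and Cpt2 (-0.31 ± 0.08). Of 6 genes of fatty acid activation, 2 were lower, among them Acsl3 (-0.51 ± 0.08), and 2 higher, among them Acsl6 (0.82 ± 0.17). Of 17 genes of lipid storage, 9 were lower and 1 higher, with Fitm1 (-0.77 ± 0.18) and Dgat2 (-0.67 ± 0.10) changed most. Of the 4 tested retinoid-binding relatives, 2 were higher, among them Rbp7 (0.77 ± 0.25). Of the 10 scavenger receptors 8 were higher and 1 lower, with a median of 0.76. Olr1 (3.60 ± 0.47, at means of only 0.0212 and 0.301 CPM) and Msr1 (2.61 ± 0.22), both known from macrophages, rose most, in the same mice as the macrophage markers.

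In the difference in rhythm, where 6.27% of all genes were called, the counts were 2 of 10 for delivery and uptake, 2 of 8 for the PPAR factors, 3 of 17 for lipid storage, 1 of 6 for the carnitine shuttle, 0 of 6 for activation, 0 of 10 for the scavenger receptors and 0 of 4 for the other Fabp genes. In the comparison of remission with nephritic mice, where 17.1% of all genes were called higher and 20.8% lower, 3 of 9 delivery and uptake genes were higher and 3 lower, among the higher ones Lpl (1.07 ± 0.25, adjusted p = 0.00107, edgeR).

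Of the other marker lists in the comparison of nephritic with young mice, where 26.4% of all genes were called higher and 33.6% lower, 3 of 4 podocyte genes were higher, among them Synpo (0.46 ± 0.06), and 4 of 7 endothelial genes were lower, led by Kdr (-0.62 ± 0.13). Both injury genes were higher, Lcn2 (4.67 ± 0.43) and Havcr1 (1.93 ± 0.30). Of 9 adrenal genes 3 were lower, with a summed level of up to 2411 CPM in young, 1645 CPM in nephritic and 11.3 CPM in remission mice. The medians of this sum were only 8.24 CPM in young and 6.94 CPM in nephritic mice. In the difference in rhythm, where 6.27% of all genes were called, 7 of 9 adrenal genes, all 10 hepatocyte genes and none of the 7 adipocyte genes were called. The hepatocyte sum reached 14373 CPM in young mice against a median of 247 CPM. Both sums were far above their medians in a minority of kidneys, and whether those kidneys made these calls was not tested. The part of adrenal RNA in the members' values was not tested.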

How the data were processed

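Whole kidneys, perfused before collection, were sequenced by the authors, who aligned reads to mm10 and deposited raw read counts per gene symbol. The submitters' processing notes name HISAT, whereas the study's methods name a Burrows-Wheeler aligner, and versions were not given in the sources used here. Of 24538 symbols, 15 with empty cells were left out. The deposited counts were tested here with edgeR 4.0.16 in R 4.3.3 (TMM scaling, at least 100 counts over the libraries of a fit, quasi-likelihood test, Benjamini-Hochberg adjusted p of at most 0.05). Time point and diagnosis were factors, with the sequencing set as a covariate for young and nephritic mice, and level changes weight time points equally. Remission was compared at ZT0 and ZT12. DESeq2 1.42.0 and limma 3.58.1 were alternatives. CPM are counts scaled to library size with TMM factors, and log2 CPM used a prior count of 2. The range of time point means and the 24 h cosine were adjusted for set. Each library is 1 mouse, and p-values rest on the spread between mice. Total counts of 13311278 to 48075977 per library set the counting error. The 4 repeat libraries entered only alternatives. Gene positions are from GENCODE vM21 and promoters from RefSeq, which held none for Fabp5.

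The members and gene lists were chosen with earlier results of these data known. In each list the 2 called genes with the largest change in level between nephritic and young mice were named, and for each member the 5 genes with the highest correlation over young libraries. Some genes that this rule names are not reported here. Alb, Per3, Pparg, Fabp4 and the hepatocyte list were chosen after their values were seen. Scripts were tested on simulated data.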

Additional observations from a re-analysis of the deposited data

Results flagged for a closer look

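In 7 of 60 combinations of a member gene and a group of 4 to 7 mice, 1 mouse lay far from the others of its group by Dixon's test, where chance gives about 1 in 20. For Fabp1 these were a young ZT4 mouse at 49.9 CPM, a young ZT8 mouse at 304 CPM and a nephritic ZT0 mouse at 37.0 CPM, each of which also had over 1000 CPM of Alb. For Fabp3 it was nephritic ZT8 mouse RX10RU at 53.3 CPM, whose clock genes also differed from its group. For Fabp5 they were a young ZT4 mouse at 19.6 CPM, the same kidney as for Fabp1, and a nephritic ZT12 mouse at 22.7 CPM. For Cd36 it was a nephritic ZT4 mouse at 121 CPM. The rhythm of 2 of the 4 tested members differed between young and nephritic mice in edgeR's interaction test, where 6.27% of all genes were called. The adjusted p was 0.024 for Fabp1, and 0.165 without the libraries over 1000 CPM of Alb. For Cd36 it was 0.0247, and 0.0401 without these libraries. Neither gene passed with a cosine in place of separate time points.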

How the results depend on the processing

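Of 413 values recomputed under alternatives other than leaving out 1 mouse, 353 kept their direction and side of the threshold, or moved by less than the limit set for a count or an amplitude, and the cause of the other changes was not tested. The level change of Fabp3 between nephritic and young mice was called in each alternative except Set 1 alone, and the Cd36 rhythm difference in each except the 24 h cosine. Alternatives without the Alb-rich libraries, without ZT16 and ZT20, with Set 1 alone and without the RX11RU pair were chosen after seeing the data.

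The number of genes called for the difference in rhythm (1099) was 2186 with DESeq2, 1715 in Set 2 alone, 693 with repeats in place of originals, 121 with a cosine, 518 without libraries over 1000 CPM of Alb and 573 without ZT16 and ZT20. For time points within nephritic mice (3646) it was 5646 with DESeq2, 1994 without the set covariate, 362 with a cosine and 7163 without the Alb-rich libraries, and within young mice (6583) it was 3721 with shared dispersion and 3931 without the Alb-rich libraries. With the run as a covariate, remission differed from nephritic mice in 4031 genes, or 4086 without the RX11RU pair, and from young mice in 2417 or 1795. DESeq2 called 24 genes between ZT0 and ZT12 in remission, and 7 and 13 for the ratio against nephritic and young mice, where limma called 0 in the last.

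The Fabp1 level change was -0.42 with limma, -0.51 without ZT16 and ZT20, -0.505 with mouse RX10RU also out, 0.30 without the Alb-rich libraries, 0.42 without these and ZT16 and ZT20, and 0.23 in Set 1 alone. The Fabp1 rhythm adjusted p was 0.0925 with limma, 0.123 with a cosine, 0.165 without the Alb-rich libraries, 0.0513 without ZT16 and ZT20, 0.0548 with RX10RU also out and 0.0774 with the Alb-rich libraries also out. Its time test gave 0.108 (cosine) and 0.271 (no Alb-rich libraries) in young mice, and in nephritic mice 0.0668 with limma, 0.0669 in Set 2, 0.219 without the set covariate, 0.5004 with a cosine, 0.464 with shared dispersion and 0.078 without the Alb-rich libraries. The Cd36 rhythm adjusted p was 0.237 with a cosine, its nephritic time test 0.0409 in Set 2 and 0.0335 without the Alb-rich libraries, and its level change -1.41 in Set 1. Fabp3 gave -0.25 in Set 1, 0.0446 for nephritic time without the Alb-rich libraries and 0.0348 for rhythm without these and ZT16 and ZT20. Fabp5 gave 0.0196 for young time without ZT16 and ZT20, and level changes of -0.27 without the Alb-rich libraries, -0.266 with ZT16 and ZT20 also out and 0.17 in Set 1. The Fabp7 level change, not called in any alternative, was -0.0059 in Set 2, -0.011 without ZT16 and ZT20 and -0.062 with RX10RU also out. With the run covariate the remission change of Fabp7 was -0.18 against nephritic and -0.17 against young mice, and that of Fabp1 against young mice 0.37, or 0.47 without the RX11RU pair. The Fabp5 change between ZT0 and ZT12 in remission was -0.00085 with RLE size factors and -0.0014 with DESeq2.

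Leaving out each mouse in turn, the rhythm count ranged from 638 to 1771, the ZT0 to ZT12 count in remission from 0 to 202, and the ratio counts from 0 to 1 against nephritic and 0 to 5 against young mice. Level changes ranged from -1.03 to -0.49 for Fabp1, the call being lost without young ZT8 replicate 3, and from -0.21 to -0.12 for Cd36, called only without young ZT0 replicate 4. Adjusted p for time ranged from 0.0423 to 0.408 for Fabp5 in young mice, called only without young ZT16 replicate 1, and in nephritic mice from 0.0147 to 0.0969 for Fabp1, lost in 19 of 27, and from 0.0429 to 0.268 for Cd36, called only without nephritic ZT0 replicate 6. Against nephritic mice, remission changes ranged from -0.051 to 0.36 for Fabp7, -1.02 to -0.59 for Fabp1 and -0.039 to 0.12 for Fabp5, and against young mice from -0.086 to 0.33 for Fabp7, its lowest values being without mouse s9. Between ZT0 and ZT12 in remission they ranged from 0.54 to 1.37 for Fabp7, -0.37 to 0.29 for Fabp1, -0.12 to 0.18 for Fabp5 and -0.0895 to 0.032 for Cd36, and the Cd36 ratio against nephritic mice from -0.17 to 0.14. No paired analysis was possible because the labels carry no replicate numbers shared between mice of different groups.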

Other observations

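Repeat libraries of 4 mice were sequenced with the remission run. Of these, 3 were nearest to their own original among all original libraries. In them Fabp7 was 18.6 CPM against 16.99 CPM in the original (young ZT0), 2.97 against 2.54 CPM (young ZT12) and 6.90 against 7.34 CPM (nephritic ZT0). The repeat of nephritic ZT12 mouse RX11RU was nearest to nephritic ZT4 mouse RX11LU, and its own original ranked 14. It held 9.01 CPM of Fabp7, against 3.63 CPM in its original and 8.77 CPM in mouse RX11LU, and 84.8 CPM of Cd36, against 121 and 95.4 CPM.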
